A study of Mus musculus with 4 samples.

Results

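The genes of Polycomb repressive complex 2 (PRC2) were examined in regulatory T cells of mouse spleen. They were taken as the genes whose symbol on the array is that of a core subunit (Ezh1, Ezh2, Eed, Suz12, Rbbp7) or of an accessory subunit (Jarid2, Aebp2, Mtf2, Phf1, Phf19). All 10 were found among the 30492 genes measured, each with 1 transcript cluster, the array's unit for a gene. The series holds 4 arrays, with 2 labelled KO (replicates 1 and 2) and 2 labelled WT (replicates 1 and 3). The KO mice combined the transgene Tg(Foxp3EGFP-cre)1cJbs with BMI1-flox on C57BL/6, and the WT mice carried the same transgene crossed with C57BL/6. Mice of both groups were 7 to 8 weeks old, and both express green fluorescent protein and Cre from Foxp3 regulatory sequence. Floxed Bmi1 would be deleted only where that transgene is active, and the labels do not say whether 1 or both copies were floxed. CD4 cells were sorted for green fluorescence, giving 15000 to 40000 cells a sample. The sample titles and treatment field describe unstimulated cells, but the series text has the cells stimulated for 24 h with antibodies to CD3 and CD28, and which applies to these arrays is unresolved.

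PRC2 attaches methyl groups to lysine 27 of histone H3, a mark of silenced genes. EZH2 or its close relative EZH1 carries out the reaction, EED and SUZ12 are needed for it, and RBBP4 or RBBP7 holds the histone. The core complex takes either JARID2 with AEBP2 or a Polycomb-like protein (PHF1, MTF2 or PHF19) as its accessory subunits. BMI1 belongs to the other Polycomb complex, PRC1, whose CBX subunits read the PRC2 mark, while JARID2 and AEBP2 can read the histone H2A ubiquitin mark that PRC1 makes. EZH2 prevails in dividing cells and EZH1 in resting cells. T cells are known to raise EZH2 when activated, and activated regulatory T cells need it to keep their identity.

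The promoters of the catalytic pair are shown because the ratio of Ezh2 to Ezh1 is followed array by array below. Those of Suz12 and Phf19 are shown because each, like that of Ezh2, matched 1 of the 4 words below, though not the word found in Ezh2. Each is the RefSeq window from 250 bases before to 50 bases after the gene's start, on build GRCm38.p6. The windows are chr6:47594981-47595280 (minus strand), chr11:101226414-101226713 (minus strand), chr11:79992856-79993155 (plus strand) and chr2:34913927-34914226 (minus strand). Capitals mark a match to any of the 4 words TTTCCCGC, TTTCGCGC, TTTGCCGC and TTTGGCGC, forms of the motif of E2F, the factor family that switches on genes of dividing cells. Both strands were searched, and a word on the minus strand is printed as its reverse complement.
Ezh2: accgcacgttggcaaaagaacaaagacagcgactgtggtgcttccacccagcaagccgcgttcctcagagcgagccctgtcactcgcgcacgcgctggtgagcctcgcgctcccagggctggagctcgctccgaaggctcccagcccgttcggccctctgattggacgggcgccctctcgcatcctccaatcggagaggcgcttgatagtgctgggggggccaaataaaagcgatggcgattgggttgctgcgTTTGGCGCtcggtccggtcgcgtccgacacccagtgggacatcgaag
Ezh1: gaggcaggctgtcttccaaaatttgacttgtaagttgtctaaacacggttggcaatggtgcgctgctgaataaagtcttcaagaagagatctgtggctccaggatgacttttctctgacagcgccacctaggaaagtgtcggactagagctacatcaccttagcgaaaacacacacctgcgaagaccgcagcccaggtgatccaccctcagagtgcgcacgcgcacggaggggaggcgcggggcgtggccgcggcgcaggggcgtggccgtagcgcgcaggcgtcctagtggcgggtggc
Suz12: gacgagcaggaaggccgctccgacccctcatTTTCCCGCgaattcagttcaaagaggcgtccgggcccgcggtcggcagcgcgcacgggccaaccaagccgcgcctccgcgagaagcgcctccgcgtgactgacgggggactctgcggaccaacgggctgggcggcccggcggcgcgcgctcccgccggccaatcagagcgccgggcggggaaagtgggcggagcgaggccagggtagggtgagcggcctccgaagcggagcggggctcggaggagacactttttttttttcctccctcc
Phf19: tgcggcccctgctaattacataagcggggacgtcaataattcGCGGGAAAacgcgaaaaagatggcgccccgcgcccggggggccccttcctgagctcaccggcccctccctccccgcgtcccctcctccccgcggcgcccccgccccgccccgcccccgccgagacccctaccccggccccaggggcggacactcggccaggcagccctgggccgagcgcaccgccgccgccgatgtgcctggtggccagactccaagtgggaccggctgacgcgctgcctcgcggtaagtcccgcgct

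Among the 14 windows of the 10 genes, 3 held such a word, those of Ezh2, Suz12 and Phf19, against 2.26% of the 32851 windows of all genes. The Ezh2 word TTTGGCGC began 3 bases after the start, while those of Suz12 and Phf19 began 219 and 208 bases before it. The Ezh1 window held none of the 4 words. In 11 of the 14 windows the CG dinucleotide was more frequent than in the median window of all genes, which had 7, and the counts ran between 2 and 41. Each of the 4 words holds a CG, and the windows of Ezh2, Suz12 and Phf19 had 31, 41 and 38. The 2.26% of all windows is thus not a like background, and whether the words are more frequent in PRC2 genes was not tested. The words are matches of letters and say nothing of binding.

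The arrays were alike in scale, with medians of 4.65 and 4.69 (KO) and 4.72 and 4.67 (WT) on the log2 scale. The labels do not state that each sample is another animal, and the p-values then cover no more than the spread between these 4 samples, which may be technical. Regulatory T cell and T cell markers read above the median gene (11 of 11 and 7 of 7 measured), whereas 6 of 9 B cell, 8 of 11 myeloid, 2 of 2 red cell, 3 of 5 natural killer cell and 1 of 2 CD8 T cell markers read below it. Among those above it, the CD8 gene Cd8b1 read 10.71 and 11.26 on the KO arrays, against 9.74 and 10.78 on the WT arrays. The other CD8 gene, Cd8a, lay below the median gene and went the other way, at 4.08 and 4.07 on the KO arrays, against 4.12 and 4.23 on the WT arrays. Eomes, a transcription factor of killer cells, read 7.37 and 8.49 on the KO arrays, against 6.80 and 6.91 on the WT arrays (difference 1.08, SE 0.37, limma adjusted p 0.438). The natural killer cell markers as a list did not follow it. Of the 5 measured, Eomes included, 3 were higher and 2 lower in KO, with a median difference of 0.07. The regulatory T cell markers were not equal between the groups. In KO 5 were higher and 6 lower, between -1.34 for Lrrc32 and 1.15 for Gpr83 on the log2 scale. Of the T cell markers 6 were higher and 1 lower, between -0.09 and 0.57. In either list 0 passed in the limma fit. Foxp3 itself shares its cluster with other genes and has no value here. The plasma cell markers averaged 6.56 and 6.51 on the KO arrays, against 6.16 and 6.32 on the WT arrays. Of these 8 markers 4 read below the median gene, and 7 were higher and 1 lower in KO. The largest difference was that of Jchain (1.03, SE 0.13, limma adjusted p 0.205). Of the 11 myeloid markers 10 were lower and 1 higher in KO, with a median of -0.09, and 0 passed in the limma fit. For 6 of the 11 both KO arrays lay below both WT arrays, against 17.5% of all genes. With the arrays centred on their medians 8 were lower and 3 higher. The part of these markers in the results below was not tested.

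Bmi1, the targeted gene, read 9.58 and 9.91 on the arrays labelled KO, against 8.98 and 8.98 on those labelled WT. It was thus 0.77 higher on the log2 scale (SE 0.16, limma adjusted p 0.30), opposite to the genotype label. Neither the exons under the cluster nor the floxed exons are given, so this value may not bear on the deletion. Every direction below rests on the labels alone, and KO and WT stand for the arrays labelled so.

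None of the 10 PRC2 genes passed the test between the groups. At a limma adjusted p under 0.05 over all genes, 0 of 10 were called in either direction, where 0.00656% of all genes were (Snord14e and Igf2bp3). At an unadjusted limma p under 0.05 there were also 0 of 10, against 10.1% of all genes. The differences, KO minus WT, ran between -0.29 for Phf1 and 0.31 for Eed on the log2 scale, with standard errors of 0.12 to 0.21. Of the 10, 5 lay above 0, as did 51% of all genes, and 5 below, and their median was 0.01, the same as over all genes, while the median size without sign was 0.14 against 0.11 over all genes. After a further quantile normalization 4 lay above 0 and 6 below, against 17521 and 12810 of the 30492 genes. The median was then -0.03, against 0.03 over all genes. None of the 10 reached a 2-fold difference, which 0.672% of all genes did. The 95% intervals of all 10 included 0 and lay inside a 2-fold change in either direction, which was so for 95.4% of all genes. The arrays therefore leave room for changes of a PRC2 gene between 0.563-fold, the lower bound of Phf1, and 1.59-fold, the upper bound of Ezh2, each interval taken on its own.

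**Figure D1:**
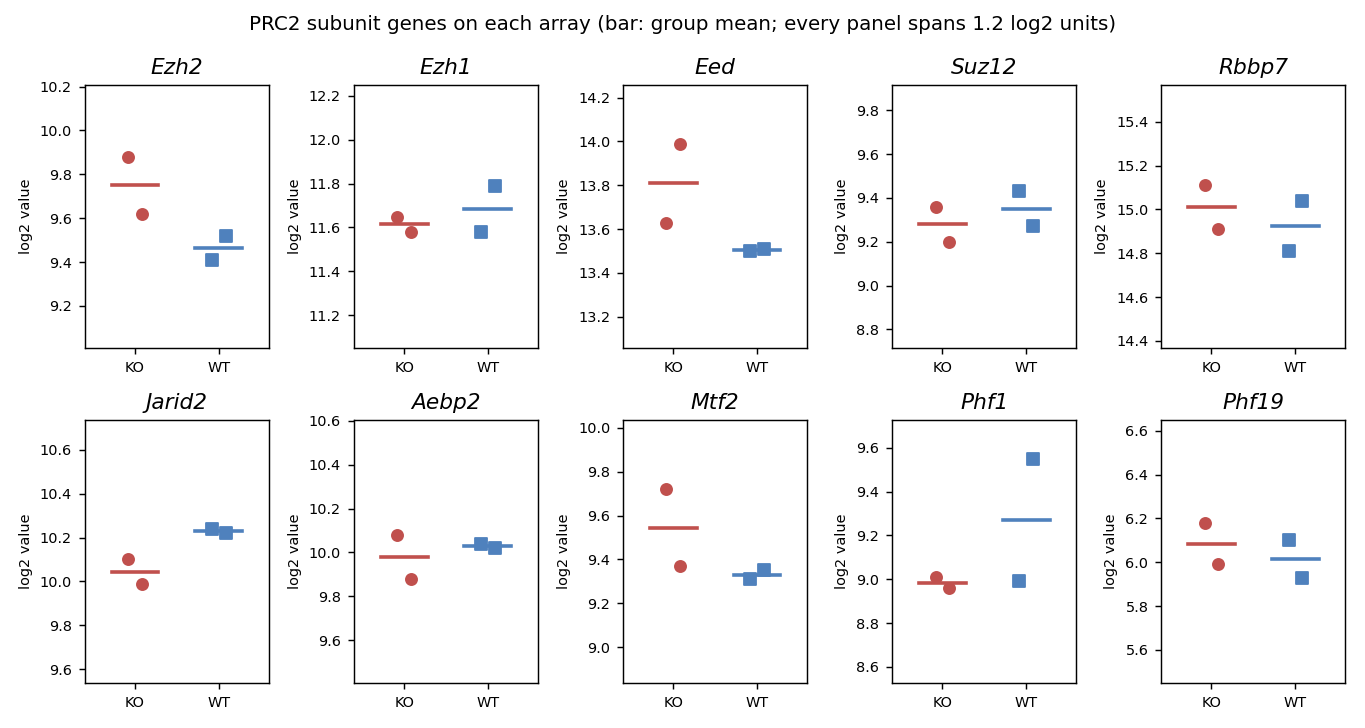
Log2 values of the 10 PRC2 genes on each array, with KO arrays as red circles on the left, WT arrays as blue squares on the right and bars at the group means; every panel spans 1.2 log2 units around its own centre, and levels of different genes are not comparable. Ezh2, Eed and Mtf2 have both KO arrays above both WT arrays, Jarid2 has them below, and the other 6 genes overlap.

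For 3 genes both KO arrays lay above both WT arrays, and for 1 gene below, against 20.9% and 17.5% of all genes. With the arrays centred on their medians the counts were 2 and 1, against 7669 and 4153 of the 30492 genes. After a further quantile normalization they were 2 and 2, against 7715 and 4552 of the 30492. The mean difference was larger than the gap between the arrays of either group for Ezh2 and Jarid2, 2 of the 10, against 27.2% of all genes. In either direction together, 4 of the 10 genes separated, against 38.4% of all genes, so separation was about as frequent as in the rest of the table.

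Of the catalytic subunits, Ezh2 read 9.88 and 9.62 on the KO arrays, against 9.41 and 9.52 on the WT arrays. Both KO arrays were higher, with KO replicate 1 furthest up. The difference was 0.29 (SE 0.15), 1.22-fold (95% interval 0.935 to 1.59, limma adjusted p 0.608). Ezh1 read 11.65 and 11.58 on the KO arrays, against 11.58 and 11.79 on the WT arrays, and the groups overlapped. Its difference was -0.07 (SE 0.13), 0.953-fold with an interval of 0.76 to 1.19 (limma adjusted p 0.913).

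Since a cell can exchange EZH1 for EZH2, the log2 ratio of Ezh2 to Ezh1 was also taken within each array. A constant shift of the whole array cancels there, but a scaling that depends on level does not. After a further quantile normalization the difference, KO minus WT, was 0.31 for Ezh2 and -0.12 for Ezh1. On the deposited values the ratio was -1.77 and -1.96 on the KO arrays, against -2.17 and -2.27 on the WT arrays. The groups did not overlap, and the gap between their nearest arrays exceeded the gap within either group. The ratio was higher in KO by 0.36 on the log2 scale. That value is the Ezh2 difference of 0.29 less the Ezh1 difference of -0.07, so most of it came from Ezh2. The level of the ratio has no meaning of its own, since probes of different genes have no common scale. In the two-sided exact permutation test p was 0.333, the smallest that this test can give with 2 arrays against 2, so it cannot pass the threshold here.

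**Figure D2:**
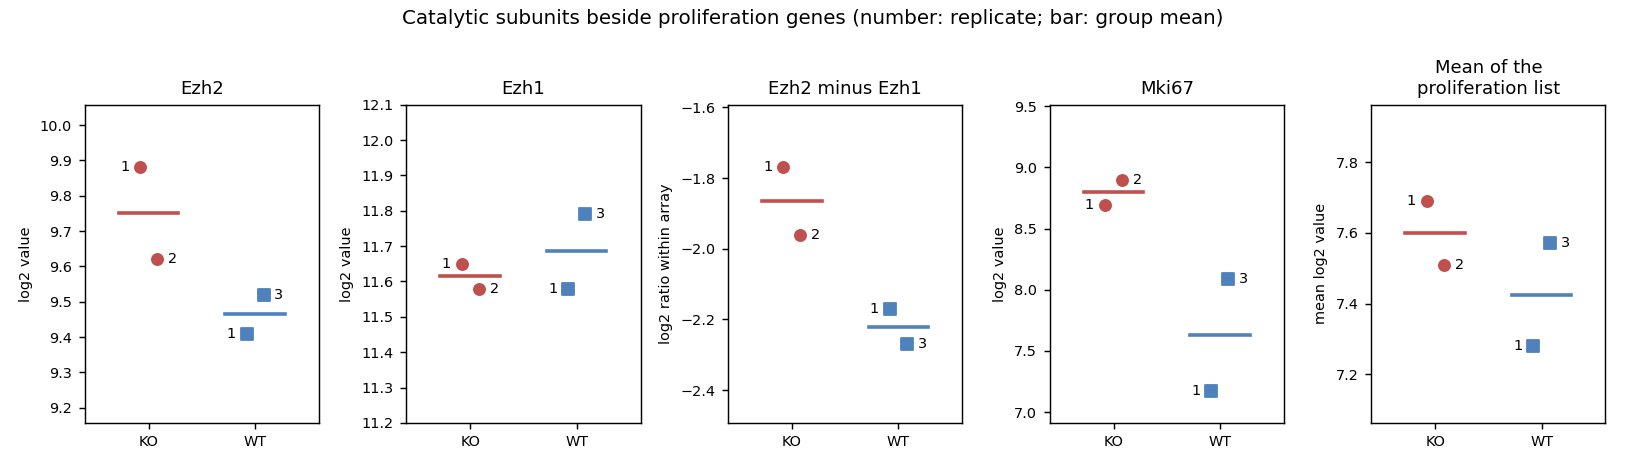
Ezh2, Ezh1, their log2 ratio within each array, Mki67 and the mean of 20 proliferation genes, with KO arrays as red circles, WT arrays as blue squares, replicate numbers beside the points and bars at group means (log2 scales). Ezh2, the ratio and Mki67 have both KO arrays above both WT arrays, and the mean of the list overlaps.

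As Ezh2 is known to follow cell division, the proliferation genes are given beside it. Mki67, a protein of dividing cells, read 8.69 and 8.90 on the KO arrays, against 7.17 and 8.09 on the WT arrays (difference 1.17, SE 0.32, limma adjusted p 0.378). Of 20 measured proliferation genes 16 were higher and 4 lower in KO, with a median of 0.09 against 0.01 over all genes, and 0 passed in the limma fit. Their mean level was 7.69 and 7.51 on the KO arrays, against 7.28 and 7.57 on the WT arrays, so that WT replicate 1 was lowest and KO replicate 1 highest, as for Ezh2. In the mean, though, WT replicate 3 lay above KO replicate 2, which was not so for Ezh2. The 4 with the smallest p were Ccna2 (0.63, SE 0.16), Mki67, Tpx2 (0.65, SE 0.18) and Birc5 (0.23, SE 0.07), all known from the later cell cycle. Birc5 read 3.51 and 3.54 on the KO arrays, against 3.32 and 3.27 on the WT arrays, close to the bottom of the table. Differences of the whole list ran between -0.34 and 1.17. Whether the share of dividing cells has a part in the Ezh2 values was not tested. In a bulk sample, more cells of a kind and more RNA per cell cannot be told apart.

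Among the noncatalytic core genes, Eed, which encodes the subunit that binds the finished mark and stimulates the enzyme, had the largest positive difference of the 10. It read 13.63 and 13.99 on the KO arrays, against 13.50 and 13.51 on the WT arrays. Both KO arrays were higher, but they lay 0.36 apart, more than the difference of 0.31 (SE 0.14, 1.24-fold, interval 0.964 to 1.58, limma adjusted p 0.555). KO replicate 2 decided the size: without it the difference was 0.13, and without KO replicate 1 it was 0.49.

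Suz12, the scaffold of the complex, read 9.36 and 9.20 on the KO arrays, against 9.43 and 9.27 on the WT arrays. The groups overlapped, with a difference of -0.07 (SE 0.14, 0.953-fold, interval 0.743 to 1.22). Rbbp7, whose product is shared with histone deacetylase complexes, read 15.11 and 14.91 on the KO arrays, against 14.81 and 15.04 on the WT arrays. It overlapped as well, at 0.09 (SE 0.12, interval 0.862 to 1.3-fold), and turned to -0.04 after a further quantile normalization. Its relative Rbbp4, not counted among the 10, read 9.58 and 9.44 on the KO arrays, against 9.40 and 9.54 on the WT arrays (0.04, SE 0.14). Ezh2 and Eed thus had larger differences than their partners Suz12 and Rbbp7, and whether the genes differ from each other was not tested.

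Jarid2, whose product brings PRC2 to chromatin and tunes its activity, was the member whose KO arrays both lay below. It read 10.10 and 9.99 on the KO arrays, against 10.24 and 10.22 on the WT arrays. The WT pair lay 0.02 apart and the KO pair 0.11, both less than the difference of -0.19 (SE 0.12, 0.88-fold, interval 0.706 to 1.10, limma adjusted p 0.702). Aebp2, its partner in the same form of the complex, read 10.08 and 9.88 on the KO arrays, against 10.04 and 10.02 on the WT arrays. The KO arrays lay on either side of the WT pair, and the difference was -0.05 (SE 0.14).

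The Polycomb-like genes, which encode proteins that can bind DNA rich in CG and the H3K36 methyl mark, did not move together. Mtf2 read 9.72 and 9.37 on the KO arrays, against 9.31 and 9.35 on the WT arrays, a difference of 0.22 (SE 0.16, interval 0.869 to 1.55-fold, limma adjusted p 0.748). KO replicate 1 stood apart from the other 3 arrays, and without it the difference was 0.04. Phf1 read 9.01 and 8.96 on the KO arrays, against 8.99 and 9.55 on the WT arrays. Here WT replicate 3 stood apart, and without it the difference of -0.29 (SE 0.21, limma adjusted p 0.742) became -0.01. Phf19 read 6.18 and 5.99 on the KO arrays, against 6.10 and 5.93 on the WT arrays, and overlapped at 0.07 (SE 0.13). The larger differences of Mtf2 and Phf1 thus each came from 1 array.

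**Figure D3:**
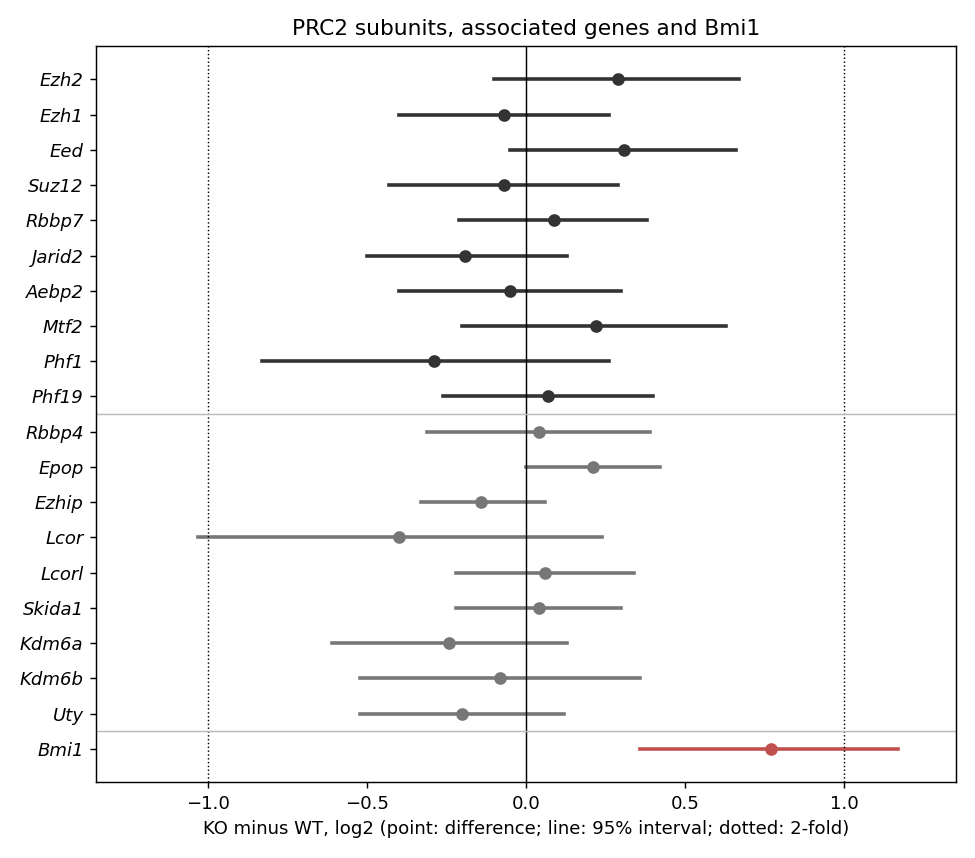
Difference KO minus WT on the log2 scale (point) with its 95% interval from limma (line) for the 10 PRC2 genes (black), PRC2-associated genes and KDM6 family genes (grey) and Bmi1 (red), with dotted lines at a 2-fold change. The intervals of the 10 PRC2 genes include 0 and stay inside the dotted lines, and that of Bmi1 lies above 0.

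Within the KO pair, replicate 1 read above replicate 2 for 9 of the 10 genes, Eed being the exception, whereas 45.5% of all genes did so. This order was not particular to PRC2. The regulatory T cell markers averaged 12.91 on KO replicate 1 and 12.70 on KO replicate 2, and the proliferation genes 7.69 and 7.51. Not every list had it, and the mostly dim PRC2 targets averaged 4.21 and 4.30. All genes include many dim ones, whereas the 10 all read above the median gene. Within the WT pair replicate 3 read above replicate 1 for 6 of the 10, against 46.3% of all genes. The mean over the 10 genes was 10.47 and 10.35 on the KO arrays, against 10.34 and 10.42 on the WT arrays. As a group the PRC2 genes therefore overlapped between the genotypes, and the arrays of 1 genotype lay further apart than the group means.

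**Figure D4:**
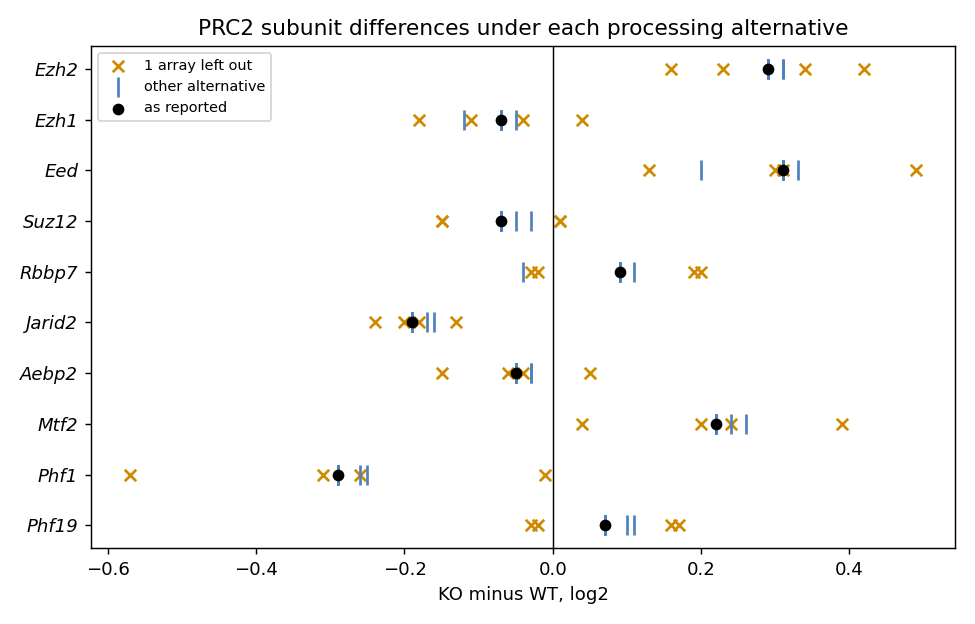
Difference KO minus WT of each PRC2 gene on the log2 scale as reported (black point), with each of the 4 arrays left out in turn (orange crosses) and under the 7 other alternatives (blue bars, many of them coinciding). Ezh2, Eed, Jarid2, Mtf2 and Phf1 stay on 1 side of 0 in all settings drawn, and the other 5 genes cross it.

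Other genes that act with PRC2 gave no call either. Epop, whose product joins the Polycomb-like form, read 4.38 and 4.46 on the KO arrays, against 4.24 and 4.18 on the WT arrays. Both KO arrays were higher (0.21, SE 0.08, interval 0.998 to 1.34-fold, limma adjusted p 0.501), at a level below the median gene, where a difference may be understated. Ezhip, known as an inhibitor of the enzyme, read 3.15 and 3.10 on the KO arrays, against 3.31 and 3.21 on the WT arrays (-0.14, SE 0.07), close to the bottom of the table. Lcor, which also encodes the PRC2 partner PALI1, has several clusters. The brightest read 11.23 and 10.72 on the KO arrays, against 11.62 and 11.12 on the WT arrays, with a difference of -0.40 (SE 0.25). Another read 9.95 and 10.07 on the KO arrays, against 10.19 and 10.17 on the WT arrays. The cluster listed as Gm340 overlapped, at 6.97 and 7.02 (KO) against 6.76 and 7.15 (WT). The value of -0.40 may therefore not stand for PALI1. The related Lcorl had 0.06 (SE 0.11) and Skida1 0.04 (SE 0.10).

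The family of the enzymes that remove the PRC2 mark, KDM6, was lower in KO for 3 of 3 genes, under each of the 3 scalings compared, and 0 passed in the limma fit. Kdm6a read 10.06 and 10.01 on the KO arrays, against 10.14 and 10.41 on the WT arrays (-0.24, SE 0.15, limma adjusted p 0.668). Its relative on the Y chromosome, Uty, whose product is known to have little such activity, read 8.94 and 8.85 on the KO arrays, against 9.09 and 9.10 on the WT arrays (-0.20, SE 0.13, limma adjusted p 0.676). Both showed no overlap, as 17.5% of all genes did in this direction. Kdm6b, the inducible demethylase, overlapped at -0.08 (SE 0.17) on its brightest cluster. A dim cluster that the array lists as 1700064E03Rik came under Kdm6b only when names were updated. It was higher in KO, at 4.38 and 4.48 on the KO arrays, against 4.25 and 4.31 on the WT arrays, and may not stand for Kdm6b.

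Set beside PRC1, PRC2 differences were of the same typical size, with a median without sign of 0.14 for both. They ran between -0.29 and 0.31, against -0.18 and 0.77 for PRC1, where the upper end was Bmi1 itself. Of 16 measured PRC1 genes 10 were higher and 6 lower in KO (median 0.07), and 3 had an unadjusted limma p under 0.05, Cbx8 (0.70, SE 0.15), Bmi1 and Ring1 (0.34, SE 0.11), where 10.1% of all genes did and 0 of the 10 PRC2 genes. None of the 16 passed the adjusted threshold, and whether the complexes differ was not tested. The PR-DUB genes, which erase the PRC1 mark, were higher for 3 of 7 (median -0.07). The methyltransferases of H3K4 and H3K36, marks that oppose PRC2, were higher for 3 of 10 (median -0.10). In the SWI/SNF remodelling complexes 3 of 11 were higher and 6 lower (median -0.04), with Arid2 at -0.42 (SE 0.13). In the deacetylase and histone chaperone complexes that share RBBP4 and RBBP7, 13 of 15 were higher (median 0.11), with differences between -0.24 and 0.18. No gene of these 4 groups passed in the limma fit, where the unadjusted p fell under 0.05 for Arid2 alone.

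**Figure D5:**
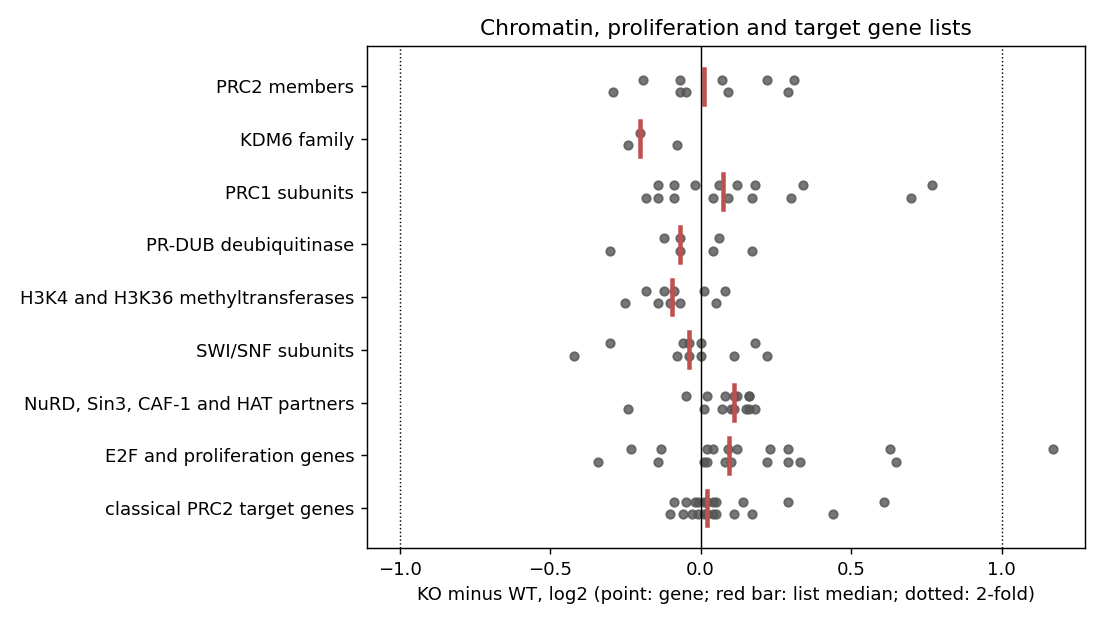
Difference KO minus WT on the log2 scale for each measured gene (grey points) of 9 gene lists, with the list median in red, dotted lines at a 2-fold change and small vertical offsets only to separate points. The PRC2 genes lie between -0.29 and 0.31, and Mki67 is the point beyond 2-fold.

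Most genes that PRC2 classically silences read below the median gene. This held for 19 of 22 measured targets, and the values of the 22 lay between 3.30 and 5.54 over the 4 arrays. In KO 14 were higher and 8 lower, with a median of 0.02 against 0.01 over all genes, and 0 passed in the limma fit. An unadjusted limma p under 0.05 was found for 3 of the 22, a share near the 10.1% of all genes. These were higher in KO, Cdkn2a (0.61, SE 0.16), Hoxa6 (0.44, SE 0.12) and Hoxa5 (0.29, SE 0.10). The array measures RNA, so neither PRC2 protein nor its histone mark was observed.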

How the data were processed

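The 4 samples of sorted mouse regulatory T cells, each on a 1-colour array, were grouped by their titles. The authors deposited 1 table of log2 values for 65528 transcript clusters, made with RMA and Transcriptome Analysis Console per the submitters' processing notes, which give no version or order. The sources used here do not give the genome build, annotation or background handling, and the label field describes real-time PCR. All columns were used.

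Clusters were named through the platform annotation, with symbols updated through RefSeq (GRCm38.p6, names only). Of the clusters 31037 had 1 gene, 1480 had several and were not used, and 33011 were not listed. For the 432 genes with several clusters the brightest was kept, leaving 30492 genes. KO minus WT was tested with limma 3.58.1 in R 4.3.3 (lmFit, eBayes with trend, two-sided, prior degrees of freedom 3.16) with Benjamini-Hochberg adjustment over all genes at 0.05, and the procedure was tested on simulated data. With 2 arrays a group, their number limits the precision. The files give no detection call, slide or scan date, so batches could not be tested. The genes named were all 10 members, Bmi1, the PRC2-associated and KDM6 genes, and at most 4 of each other list, by smallest p. Members and lists were chosen with earlier results of these data known. Cd8b1 and Eomes were singled out after their values were seen. Alternatives were other scalings, leaving out dim genes, averaging a gene's clusters, testing all clusters, other eBayes settings and leaving out each array.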

Additional observations from a re-analysis of the deposited data

How the results depend on the processing

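Over 11 alternatives 0 of the 10 PRC2 genes passed, with limma adjusted p between 0.409 (Eed among the brighter genes) and 0.993. Ezh2 (0.16 to 0.42), Eed (0.13 to 0.49), Jarid2 (-0.24 to -0.13), Mtf2 (0.04 to 0.39) and Phf1 (-0.57 to -0.01) kept their direction. Directions turned for Ezh1 without WT replicate 3 (0.04), Suz12 without KO replicate 2 or WT replicate 1 (0.01 each), Aebp2 without KO replicate 2 (0.05), Phf19 without KO replicate 1 (-0.03) or WT replicate 3 (-0.02), and Rbbp7 without KO replicate 1 (-0.02) or WT replicate 1 (-0.03) and after a further quantile normalization (-0.04). With 1 array left out these 5 genes ran between -0.18 and 0.04 (Ezh1), -0.15 and 0.01 (Suz12), -0.15 and 0.05 (Aebp2), -0.03 and 0.17 (Phf19), and -0.03 and 0.20 (Rbbp7). Where an array is left out, the lone sample of its group is assumed to vary like the others. The log2 ratio of Ezh2 to Ezh1 differed by 0.26 to 0.45 with 1 array left out.

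The count over all genes moved more. Against 2 genes called, 1 was called with median-centred arrays, 0 after a further quantile normalization, 0 without trend, 0 with robust settings, 13 among the 15252 brighter genes, 4 over all transcript clusters, 205 by a 2-fold difference with no p, and 0 in each fit that left out 1 array. Apart from the filter and the cluster test, which change the number of features tested, the cause was not tested. No paired analysis was possible because the groups share only replicate number 1. No detection call marks which low values are background.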
